A study of Mus musculus with 12 samples.

Results

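Cytosolic ribosomal proteins are the protein components of the ribosome, and the genes described here are the rows that map to a protein-coding symbol beginning Rpl or Rps and a digit, or to Rpsa, Rplp0, Rplp1 or Rplp2. The kinases named Rps6k, Rps19bp1 and rows named as pseudogenes were left out. This gave 83 genes of 28987 in the table, 33 of the small subunit and 50 of the large subunit. RNA sequencing was done on 12 libraries from C57BL/6 mouse bone marrow, 2 libraries in each of 6 groups. Haematopoietic stem and progenitor cells (HSPC) were enriched by positive selection for CD117, the receptor encoded by Kit. Their 4 genotypes were wild type, CBL mutant, RUNX1 mutant and the combined CBL/RUNX1 mutant, called double mutant here. Ly6G+ myeloid cells came from wild type and double mutant mice. CBL is a ubiquitin ligase that ends receptor signalling, and RUNX1 a transcription factor needed for blood cells to form. Marrow was taken from individual mice, and the mutant clone and the Ly6G+ cells were sorted by FACS. Whether wild type HSPC were sorted in the same way is not given, so a sort and the genotype cannot be told apart in HSPC. The labels do not give the alleles or the animals' age, nor do they say whether HSPC and Ly6G+ libraries of the same number came from the same mouse.

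A ribosome has a small subunit, which reads the mRNA, and a large subunit, which joins the amino acids. Nearly every ribosomal protein is present in 1 copy per ribosome, so the genes are known to be expressed in concert, and their mRNAs carry a run of pyrimidines at the 5′ end through which growth signals control translation. In the bone marrow, loss of 1 copy of a ribosomal protein gene is known to cause Diamond-Blackfan anaemia, and loss of RPS14 is part of the 5q deletion syndrome. Ribosome content is high in dividing progenitors and falls as neutrophils mature.

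The deposited values are TPM, a gene's share of a library's transcripts after correction for transcript length. They hold no read numbers, and depth is therefore unknown. Kit was between 24.5 and 229 TPM in HSPC libraries, and Ly6g between 388.5 and 2026 TPM in Ly6G+ libraries. The defining marker of each population was thus present, but neither separated the populations. Ly6g was between 14.2 and 586 TPM in HSPC libraries, and Kit between 5.89 and 38.0 TPM in Ly6G+ libraries, so both ranges overlapped. HSPC libraries also held neutrophil transcripts. None of the 10 neutrophil markers examined was at 0 in any library, and their summed level ranged from 89128 to 354493 TPM in HSPC and from 89712 to 416314 TPM in Ly6G+ libraries. The replicates of RUNX1 mutant HSPC and of double mutant Ly6G+ cells stood apart, with SDs of the log2 difference over all genes of 0.669 and 0.965 against 0.223 to 0.331 in the other groups.

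Ribosomal protein mRNA took the smallest share of wild type Ly6G+ libraries and the largest of double mutant HSPC libraries. The 83 genes held 9.86% and 10.2% of the TPM in wild type HSPC, 13.7% and 14.8% in CBL mutant, 18.6% and 11.3% in RUNX1 mutant and 21.5% and 20.7% in double mutant HSPC. In wild type Ly6G+ cells they held 4.32% and 3.75%, and in the double mutant Ly6G+ libraries 18.3% and 5.85%. The double mutant HSPC libraries lay above every other HSPC library, while the first double mutant Ly6G+ library lay among the HSPC values. Much of a share depends on what else is in a library. S100a8 and S100a9, the calprotectin genes of neutrophils, took 28.9% and 31.4% of wild type HSPC libraries and 8.11% and 9.54% of double mutant ones. With S100a8, S100a9, immunoglobulin, haemoglobin and mitochondrial genes taken out, the ribosomal protein share was 15.8% and 17.1% in wild type, 19.5% and 19.5% in CBL mutant, 22.6% and 16.7% in RUNX1 mutant and 24.5% and 24.2% in double mutant HSPC. The ribosomal protein share of the wild type Ly6G+ libraries was then 6.91% and 5.91%, and that of the double mutant ones 20.7% and 8.02%. Among the HSPC groups the order of the means was the same before and after this removal, while the mean of double mutant Ly6G+ libraries lay above that of wild type HSPC before it (12.1% against 10.01%) and below after it (14.3% against 16.4%). Large and small subunit genes kept similar totals, with a large to small ratio between 0.858 and 1.07 in the 12 libraries.

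**Figure D1:**
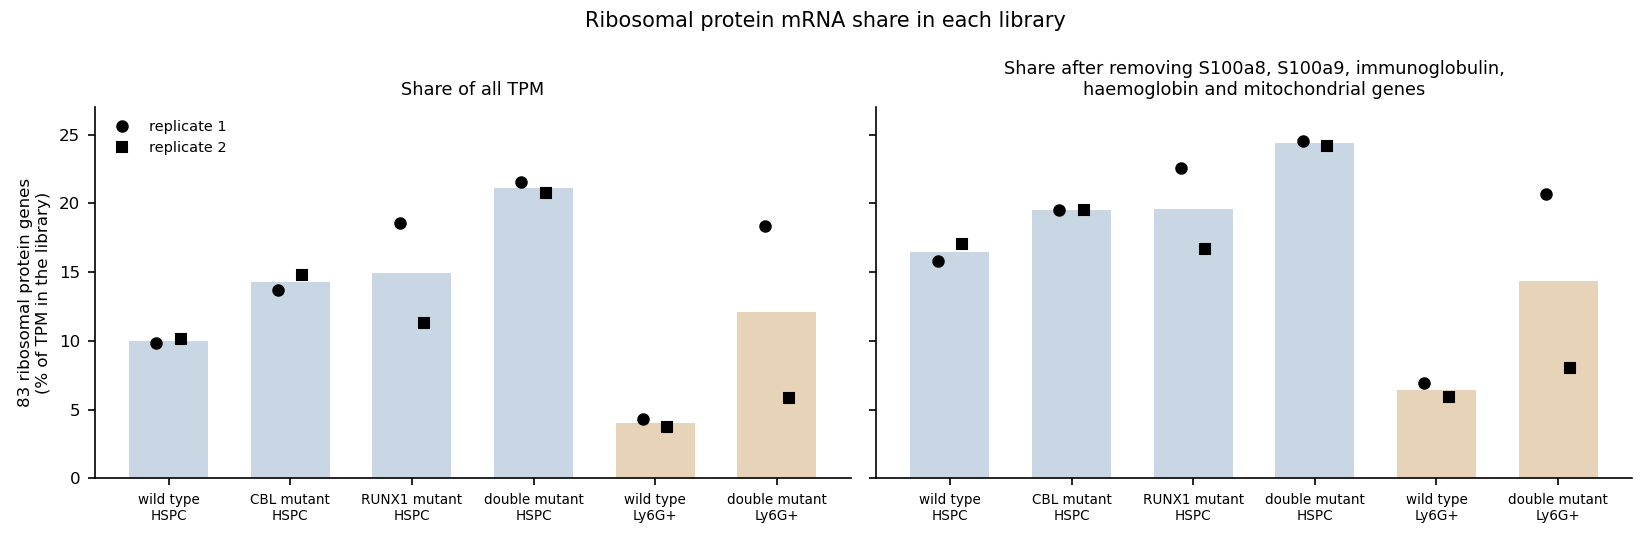
Share of the 83 ribosomal protein genes in each library's TPM (percent, vertical axis) by group, before (left) and after (right) removing S100a8, S100a9, immunoglobulin, haemoglobin and mitochondrial genes; bars are means of 2 libraries and points are the libraries. The double mutant HSPC libraries, at 21.5% and 20.7% on the left, sit above all other libraries, and the replicates of RUNX1 mutant HSPC and double mutant Ly6G+ cells lie far apart.

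The mean levels of single genes ranged from 0 to 7763 TPM. The highest means over the 12 libraries were those of Rps27rt at 7763 TPM, Rpl13a at 4241, Rplp1 at 4058, Rps29 at 3964 and Rps21 at 3571 TPM. The lowest were those of Rpl10l, listed at 0 in every library, Rpl39l at 0.335, Rpl3l at 1.45, Rpl31 at 17.2 and Rps27 at 21.7 TPM. Rpl10l, Rpl39l and Rpl3l are paralogs of Rpl10, Rpl39 and Rpl3 that are known from testis or muscle. Rpl31 and Rps27 each have a near-identical row with a far higher level, given with the other copies further on. Within HSPC the order of levels hardly moved between groups, with Spearman's rho over 80 genes from 0.992 to 0.998 between group means, against 0.854 between wild type HSPC and wild type Ly6G+ cells. These are correlations across genes, which are not independent replicates.

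Tests used limma on log2(scaled TPM + 1), with libraries scaled by trimmed means (TMM) and Benjamini-Hochberg adjustment over all genes tested, and a gene is called at an adjusted p under 0.05. The added 1 understates the change of genes near or below 1 TPM. A gene entered a fit when at least 2 of its libraries reached 1 TPM. This kept 79 of the 83 genes in the HSPC fit, all but Rps12, Rps27, Rpl10l and Rpl39l, and 80 in the others, all but Rps27, Rpl10l and Rpl39l. All comparisons against a group share its 2 libraries, and p-values measure only the spread between the libraries of a fit.

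In double mutant HSPC, 8 ribosomal protein genes of 79 were called higher than in wild type HSPC and 0 lower, and the median log2 fold change over the 79 was 0.48. Of all 12421 genes tested, 4.77% were called higher, and the median change was 0.04. The log2 fold change was positive for 78 of the 79 genes, and their interquartile range was 0.178 against 0.692 for all genes. In 73 of the 79 both double mutant libraries lay above both wild type libraries, which held for 37.6% of all genes. The genes lay in a narrow band above 0, and the called ones had changes from 0.50 to 1.07.

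The 8 called genes were all of the large subunit. Rpl10a (ENSMUSG00000037805, chromosome 17, 28328471 to 28331033), the protein of the L1 stalk where spent tRNA leaves, had 111 and 92.2 TPM in wild type, 192 and 204 in CBL mutant, 273 and 128 in RUNX1 mutant and 316 and 293 in double mutant HSPC. Its log2 fold change, double mutant against wild type, was 0.96 ± 0.19 (SE), with an adjusted p of 0.0328 by limma. Rpl14 (ENSMUSG00000025794, chromosome 9, 120571444 to 120574654) had 783 and 708 TPM in wild type, 1128 and 1148 in CBL mutant, 1610.3 and 961 in RUNX1 mutant and 1886 and 1866 in double mutant HSPC, a change of 0.71 ± 0.14 (SE) with an adjusted p of 0.0330. For both genes the double mutant libraries were the highest of the HSPC libraries and the wild type ones the lowest, and the first RUNX1 mutant library was well above the second. Rpl27a (ENSMUSG00000046364, chromosome 7, 109519147 to 109522367) had 41.7 and 42.04 TPM in wild type, 62.5 and 58.7 in CBL mutant, 64.4 and 46.6 in RUNX1 mutant and 98.6 and 108 in double mutant HSPC, a change of 0.67 ± 0.15 (SE) with an adjusted p of 0.0370. Rpl27 (ENSMUSG00000063316, chromosome 11, 101442298 to 101445529), a gene of Diamond-Blackfan anaemia, had 90.7 and 91.1 TPM in wild type, 115 and 129 in CBL mutant, 121 and 101 in RUNX1 mutant and 218 and 257 in double mutant HSPC, a change of 0.76 ± 0.18 (SE) with an adjusted p of 0.0448. Rpl28 (ENSMUSG00000030432, chromosome 7, 4792874 to 4795066) had 219 and 184 TPM in wild type, 278 and 306 in CBL mutant, 341 and 233 in RUNX1 mutant and 461 and 416 in double mutant HSPC, a change of 0.50 ± 0.12 (SE) with an adjusted p of 0.0474. In these 3 genes too, no double mutant library overlapped a library of another HSPC group. The rows of Rpl10a, Rpl27a and Rpl27 held only 11.4%, 2.14% and 4.24% of the TPM of each gene plus its near-identical copies, so their levels are uncertain. The remaining 3 called genes were Rpl5, Rpl11 and Rpl32, the last named after its values were seen. Rpl32 changed by 0.66 with an adjusted p of 0.0479.

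Rpl5 and Rpl11 bind the 5S ribosomal RNA, and when ribosome assembly is disturbed the free particle is known to bind MDM2 and stabilise p53. Rpl5 (ENSMUSG00000058558, chromosome 5, 107900502 to 107909005) had 20.6 and 17.3 TPM in wild type, 37.4 and 28.8 in CBL mutant, 45.8 and 19.6 in RUNX1 mutant and 62.2 and 62.5 in double mutant HSPC. Its log2 fold change, double mutant against wild type, was 1.07 ± 0.24 (SE), with an adjusted p of 0.0385 by limma. Rpl11 (ENSMUSG00000059291, chromosome 4, 136028265 to 136053428) had 1009 and 963 TPM in wild type, 1348 and 1556 in CBL mutant, 1833 and 1196 in RUNX1 mutant and 2308 and 2309.8 in double mutant HSPC, a change of 0.61 ± 0.15 (SE) with an adjusted p of 0.0476. Both members of the 5S particle were thus called, against 0 of the 4 stalk genes, 0 of the 8 genes around the exit tunnel, and 3 of the 18 tested genes of Diamond-Blackfan anaemia and the 5q deletion (Rpl5, Rpl11 and Rpl27). The Rpl5 row held 37.5% of the TPM of Rpl5 plus its near-identical copies. Neither Rpl5 nor Rpl11 stayed called with copies summed, and differences between these groups of genes were not tested. The stalk genes Rplp0, Rplp1 and Rplp2, which recruit elongation factors, had changes of 0.53, 0.49 and 0.37 with adjusted p from 0.0665 to 0.158. Rps19, the gene most often mutated in Diamond-Blackfan anaemia, had a change of 0.50 ± 0.17 (SE) and an adjusted p of 0.0875. Rps14, the 5q gene, had a change of 0.53 ± 0.18 (SE) and an adjusted p of 0.0943. Rpsa, which also serves as a laminin receptor, had 0.40 ± 0.16 (SE) and 0.135.

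The number of calls depended on the scaling, on single libraries and on the copies of a gene. Without scaling, 78 genes were called higher, with a median of 1.09 while the median of all genes was itself 0.56. With near-identical copies summed into each gene 3 stayed called, namely Rpl14, Rpl28 and Rpl32, and Rpl5 then changed by 0.21 (adjusted p of 0.610). Leaving out any 1 wild type, CBL mutant or double mutant HSPC library gave 0 calls, and leaving out either RUNX1 mutant library gave 40, with medians from 0.31 to 0.56. When libraries were scaled on the median of the ribosomal protein genes themselves, 0 were called and the smallest adjusted p was 0.0557.

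Other markers moved with this comparison. In double mutant HSPC against wild type, 8 of 10 neutrophil markers were called lower and 3 of 5 plasma cell markers were called lower, against 6.09% of all genes. Of 4 monocyte markers 1 was called higher (median 0.65), while Ly6c2 changed by -1.97. The 4 summed to 1676 and 1638 TPM in wild type libraries and to 1109 and 1152 TPM in the double mutant ones. The summed neutrophil markers were at 329164 and 354493 TPM in wild type libraries and at 89128 and 101194 TPM in the double mutant ones. The 7 progenitor markers summed to 142 and 123 TPM in wild type libraries and to 538 and 420 TPM in the double mutant ones, and 1 of the 7 was called higher. The 6 cycling cell markers summed to 921 and 821 TPM in wild type libraries and to 1075 and 1107 TPM in the double mutant ones. They had 0 calls by limma and a median log2 fold change of -0.46 after scaling. In bulk samples fewer cells of a type and less RNA per cell cannot be told apart, and the part of these markers in the change of the ribosomal protein genes was not tested.

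**Figure D2:**
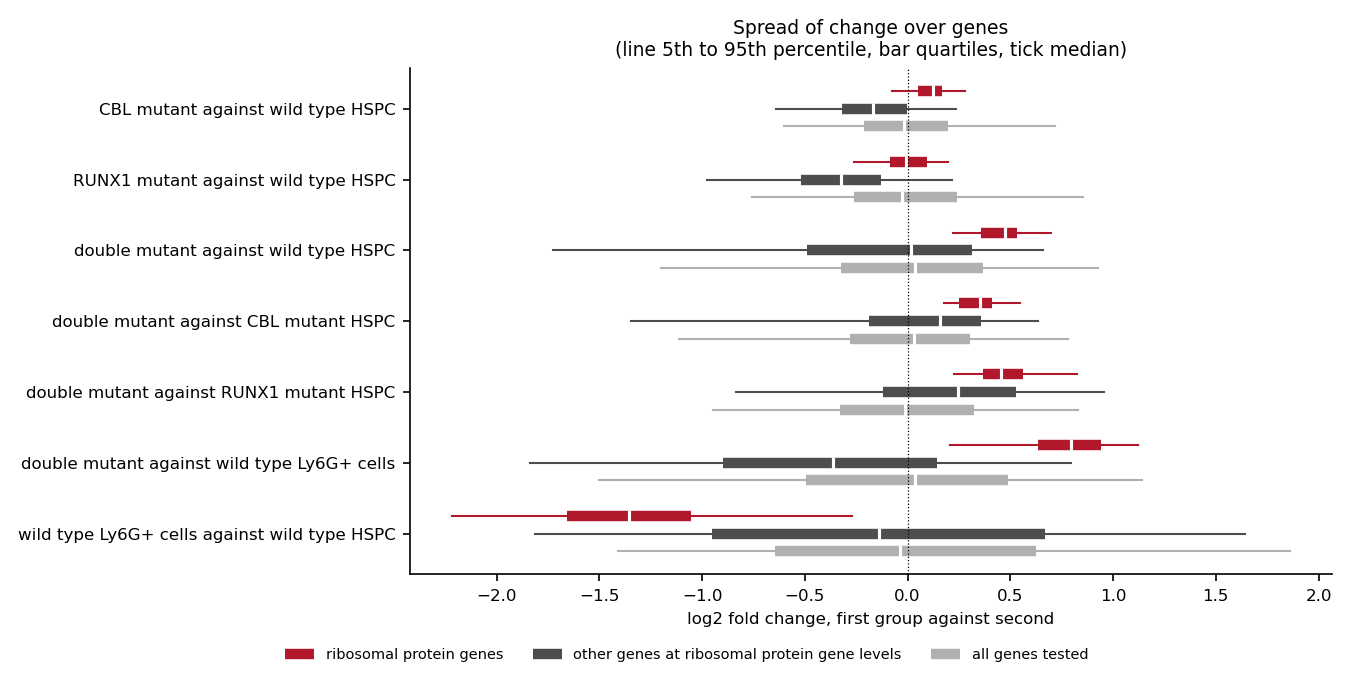
Log2 fold change (horizontal axis) over ribosomal protein genes, other genes expressed at their levels and all genes tested, for the 7 comparisons of groups; lines run from the 5th to the 95th percentile, bars between quartiles, and ticks mark medians. The ribosomal protein genes form the narrowest band in every comparison, centred at 0.48 for double mutant against wild type HSPC and at -1.36 for wild type Ly6G+ cells against wild type HSPC.

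The promoters of genes that moved together are shown for a run of pyrimidines around the start of transcription. RefSeq promoters (GRCm38.p6, 250 bases before to 50 after each start) matched 63 of the 83 genes, with 75 promoters. A run of at least 8 C or T letters on the gene's strand, between 20 bases before and 40 after the start, was found in 61.3% of these promoters and in 21.8% of all 32851 promoters. The letters CCGGAAG, on either strand, were found in 34.7% against 8.86%. The letters AAGATGGC, on either strand, were found in 10.7% against 2.75%; both motifs hold AAG, so their matches may overlap. TATAAA on the gene's strand within 50 bases before the start was found in 1.33% against 2.63%. Windows of 30 bases before to 20 after the start are printed for called genes with and without the run, with the run in capitals. Rpl27a lies at chr7:109519165-109519214, Rpl14 at chr9:120571487-120571536, Rpl28 at chr7:4792935-4792984, Rpl5 at chr5:107900498-107900547 and Rpl27 at chr11:101442215-101442264, all on the plus strand. Rps28, which had the largest fall in wild type Ly6G+ cells against wild type HSPC, lies at chr17:33824543-33824592 on the minus strand.
Rpl27a: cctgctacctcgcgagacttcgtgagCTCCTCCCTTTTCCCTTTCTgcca
Rpl14: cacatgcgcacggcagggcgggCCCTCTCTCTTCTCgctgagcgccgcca
Rpl28: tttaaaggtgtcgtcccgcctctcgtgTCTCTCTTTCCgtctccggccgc
Rpl5: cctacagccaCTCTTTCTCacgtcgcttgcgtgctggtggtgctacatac
Rpl27: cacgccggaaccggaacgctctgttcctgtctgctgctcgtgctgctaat
Rps28: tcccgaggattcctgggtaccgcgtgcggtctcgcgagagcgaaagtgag
The run in Rpl27a is 20 letters long, that in Rpl14 is 14, that in Rpl28 is 11 and that in Rpl5 is 9. Those of Rpl27a, Rpl14 and Rpl28 span the annotated start. That of Rpl5 lies wholly before it, so by this start it is not part of the mRNA. The gene start given for Rpl5 above lies before the run, however, and by that start the run is inside the transcript. Whether the Rpl5 mRNA carries the run thus depends on the start used. The longest run in the searched window is 5 in Rpl27 and 4 in Rps28, so these 2 are below the 8 letters asked for although Rpl27 was called higher and Rps28 was called lower in the comparisons described here. The window of Rpl27 ends before the gene start given for it above, so the start of its main transcript may lie outside the window. A match is a description of the letters only.

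In CBL mutant against wild type HSPC, 0 of 79 ribosomal protein genes were called by limma (1 had an unadjusted p under 0.05), against 0.556% of all genes in either direction. The median log2 fold change was 0.13, and 68 of the 79 values were positive. Without the first wild type library the median was -0.05, and without either RUNX1 mutant library 2 genes were called. In 17 of the 79, both CBL mutant libraries lay above both wild type ones, against 26.2% of all genes. The smallest p were those of Rpl10a, with 0.56 ± 0.19 (SE) and an adjusted p of 0.389, and of Rpl12, a stalk base gene, with 0.46 ± 0.24 (SE) and an adjusted p of 0.546. Rpl12 had 53.6 and 46.4 TPM in wild type, 91.9 and 90.5 in CBL mutant, 125 and 50.03 in RUNX1 mutant and 133 and 118 in double mutant HSPC, so its CBL mutant libraries did not overlap the wild type ones. Of markers, 3 of 5 of plasma cells were called lower (median -3.68) and 2 of 3 tested of T and NK cells higher (median 3.24). The 2 were Lck and Tcf7. The third, Nkg7, changed by -0.69, and Cd3e, Cd3g and Klrb1c were too low to be tested. The part of these markers in the values was not tested.

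In RUNX1 mutant against wild type HSPC, 0 of 79 were called by limma (1 had an unadjusted p under 0.05), against 0.0483% of all genes in either direction. The median was -0.01, or 0.53 without scaling, where the median of all genes was 0.45. Leaving out the second RUNX1 mutant library gave 4 calls, 2 in each direction, and leaving out the first gave 0. The members were spread around 0, with 37 positive and 42 negative values, and 4 of the 79 lay above both wild type libraries without overlap, against 22.8% of all genes, and 10 lay below both, against 25.9%. The smallest p were those of Rps27l, a p53-induced paralog of Rps27, with -0.58 ± 0.16 (SE) and an adjusted p of 0.234, and of Rpl36al, the retrogene paralog of Rpl36a, with -0.37 ± 0.16 (SE) and an adjusted p of 0.311. On the scaled levels, 69 of 80 genes were higher in the first RUNX1 mutant library than in the second, by a median of 0.18 (log2). The 2 libraries also differed in progenitor markers, which summed to 1138 and 231 TPM, and in neutrophil markers, which summed to 146406 and 316698 TPM; the part of these in the difference was not tested.

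The double mutant was also set against each single mutant. Against CBL mutant HSPC, 0 of 79 were called by limma (28 had an unadjusted p under 0.05), against 3.63% of all genes in either direction, and the median was 0.35. In 76 of the 79 both double mutant libraries lay above both CBL mutant ones, against 34.7% of all genes. The smallest p were those of Rpl27, with 0.74 ± 0.18 (SE) and an adjusted p of 0.0685, and Rpl27a, with 0.54 ± 0.15 (SE) and an adjusted p of 0.0833. Without the first or the second RUNX1 mutant library 7 and 8 genes were called. Against RUNX1 mutant HSPC, 9 of 79 were called higher and 0 lower, against 6.05% of all genes called higher, and the median was 0.45. The 6 with the smallest p were Rpl27a (0.82, adjusted p of 0.0261), Rpl27 (1.02), Rps27l (0.83), Rpl15 (0.73), Rpl28 (0.56) and Rps23 (0.73, adjusted p of 0.0435). Rps27l had 330.0 and 347 TPM in wild type, 397 and 402 in CBL mutant, 369 and 294 in RUNX1 mutant and 607 and 629 in double mutant HSPC, so its RUNX1 mutant libraries lay near the wild type and CBL mutant ones and its double mutant libraries above all others. Leaving out any 1 wild type, CBL mutant or double mutant HSPC library gave 0 calls here too, and leaving out the first RUNX1 mutant library gave 30. With copies summed, 5 were called. Of the 6 named, the rows of Rpl27a, Rpl27 and Rpl15 held only 2.14%, 4.24% and 7.72% of the TPM of gene plus copies. The share of Rps23 is given further on. All 10 neutrophil markers had negative changes in this comparison (median -1.39, 1 called lower), and 2 of 5 plasma cell markers were called lower, against 3.07% of all genes. Progenitor markers had a median of -0.89 with 0 called, and 1 of 4 monocyte markers was called higher. The part of these in the change was not tested.

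The term that asks whether the double mutant differs from the sum of both single changes called 0 of 79 by limma (14 had an unadjusted p under 0.05), against 0.0161% of all genes. Its median was 0.33, with 78 of 79 values positive, and -0.00 without scaling, so its sign depended on the scaling. The median was 0.03 over all genes and 0.37 over other genes expressed at the levels of the ribosomal protein genes, above theirs. Without the first or the second RUNX1 mutant library 1 and 3 genes were called. The smallest p were those of Rps27l (0.996 ± 0.23 (SE), adjusted p of 0.128) and Rpl27 (adjusted p of 0.140).

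In Ly6G+ cells, double mutant against wild type, 0 of 80 ribosomal protein genes were called by limma and 0 had an unadjusted p under 0.05, against 0% of all genes called. The median log2 fold change was 0.80 and 78 of the 80 values were positive. In 70 of the 80 both double mutant libraries lay above both wild type ones, against 32.9% of all genes. The spread between the double mutant libraries was as large as the change: the first exceeded the second by a median of 0.95, in 78 of 80 genes. Rpl12, with the smallest p, had 14.6 and 11.8 TPM in wild type Ly6G+ cells and 134 and 27.8 in their double mutant counterparts, a change of 1.56 ± 0.58 (SE) and an adjusted p of 0.356. Rpl27a had 19.6 and 14.7 TPM in wild type Ly6G+ cells and 97.1 and 31.1 in their double mutant counterparts, with 1.05 ± 0.40 (SE) and an adjusted p of 0.358. In both genes the second double mutant library lay closer to the wild type ones than to the first. The median was 1.27 without the second double mutant library and 0.32 without the first. The first double mutant library held 89712 TPM of neutrophil markers and 409 TPM of progenitor markers, against 330480 and 105 in the second and 416314 and 54.5 in the first wild type library; their part in the change was not tested. The term for a difference of the double mutant effect between Ly6G+ cells and HSPC called 0 of 80 by limma (1 had an unadjusted p under 0.05), against 0.0684% of all genes, with a median of 0.32. Leaving aside Rps12, which passed the filter only through Ly6G+ libraries, the smallest p was that of Rpl36al (0.56 ± 0.26 (SE), adjusted p of 0.544). The median became -0.15 without the first double mutant Ly6G+ library.

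Wild type Ly6G+ cells had less ribosomal protein mRNA than wild type HSPC in nearly every gene. Of 80 tested, 69 were called lower and 3 higher, against 21.1% and 17.6% of all 13155 genes, and the median log2 fold change was -1.36 against -0.04 for all genes. Without scaling 33 were called, 32 of them lower, and the median was -1.36; 29 were called without the second wild type HSPC library and 35 without the second wild type Ly6G+ library. Called lower were all 4 stalk genes, all 8 exit tunnel genes, 16 of 18 genes of Diamond-Blackfan anaemia and the 5q deletion, and 1 of the 2 genes of the 5S particle, Rpl11. The 3 called higher were Rps12, Rps15a and Rpl3l. Rps12 passed the filter only through the Ly6G+ libraries, where it is high, so its call is no support, and its sum with its copies was lower. Among the 8 listed paralogs, 6 were tested, with 4 lower and 1 higher; 1 of the 8, Rps4l, is not among the 83 genes. Markers moved here too: 3 of 10 neutrophil markers were called higher, 3 of 7 progenitor markers lower and 5 of 6 cycling cell markers lower. Also called higher were 3 of 6 B cell markers (median 1.69), 2 of 5 tested T and NK cell markers (1 was lower) and 1 of 4 monocyte markers. Neutrophil markers summed to 416314 and 412838 TPM in the wild type Ly6G+ libraries and progenitor markers to 54.5 and 50.4 TPM, and their part in the fall was not tested.

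The largest fall was that of Rps28, followed by Rps29. Rps29 (ENSMUSG00000034892, chromosome 12, 69157722 to 69159186), a zinc-binding protein of the small subunit head, had 3957 and 3792 TPM in wild type, 4674 and 5352 in CBL mutant, 5869 and 4049 in RUNX1 mutant and 7817 and 7447 in double mutant HSPC. In Ly6G+ cells it had 681 and 613 TPM in wild type libraries and 2393 and 925 TPM in those of the double mutant. Its change was -2.58 ± 0.26 (SE), with an adjusted p of 0.000704 by limma. Rps28 (ENSMUSG00000067288, chromosome 17, 33819027 to 33824562), which lies at the mRNA exit of the small subunit, had 1894 and 1852 TPM in wild type HSPC and 316 and 299.8 in wild type Ly6G+ cells, a change of -2.60 ± 0.34 (SE) with an adjusted p of 0.00131. Neither gene overlapped between the wild type populations. Rps28 has a near-identical row, Gm10443, which matches it at 100% over 210 bases and had a mean of 1325 TPM over the 12 libraries. The change of Rps28 with copies summed is not given here, so its size may depend on that row. Rpl36al had 743 and 763 TPM in wild type HSPC and 227 and 202 in wild type Ly6G+ cells, a change of -1.80 ± 0.19 (SE) with an adjusted p of 0.000712. Rps27l had 330.0 and 347 TPM and 109 and 99.3 TPM, a change of -1.68 ± 0.18 (SE) with an adjusted p of 0.000747. These 2 paralogs had among the smallest p of the genes called lower, together with Rps29, Rps23 (-2.25), Rpl15 (-1.99) and Rps13 (-1.07).

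Pairs of paralogs fell by unlike amounts. Rpl22l1, known to be repressed by Rpl22, changed by -2.16 ± 0.38 (SE) (adjusted p of 0.00353) against -1.53 ± 0.31 (SE) for Rpl22 (adjusted p of 0.00656). Rpl22 had 954 and 1013 TPM in wild type HSPC and 346 and 329.5 in wild type Ly6G+ cells, and Rpl22l1 had 381 and 412 and 93.4 and 81.9. Rpl36a changed by -1.59 ± 0.40 (SE) and Rpl36al by -1.80, and Rpl3 by -1.39 ± 0.38 (SE). Rpl39, whose protein lines the exit tunnel, changed by -2.13 ± 0.38 (SE), while Rpl39l stayed between 0 and 1.001 TPM in all libraries and was not tested. Differences between paralogs were not tested. The other genes fixed for description were called lower as well, with changes of -1.46 for Rpsa, -1.06 for Rplp0, -1.58 for Rplp1, -1.45 for Rplp2, -1.08 for Rpl11, -1.63 for Rps14 and -1.19 for Rps19, each with an adjusted p from 0.00291 to 0.0450 by limma. Rpl5 had -0.86 ± 0.37 (SE) and was not called, with an adjusted p of 0.0961.

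**Figure D3:**
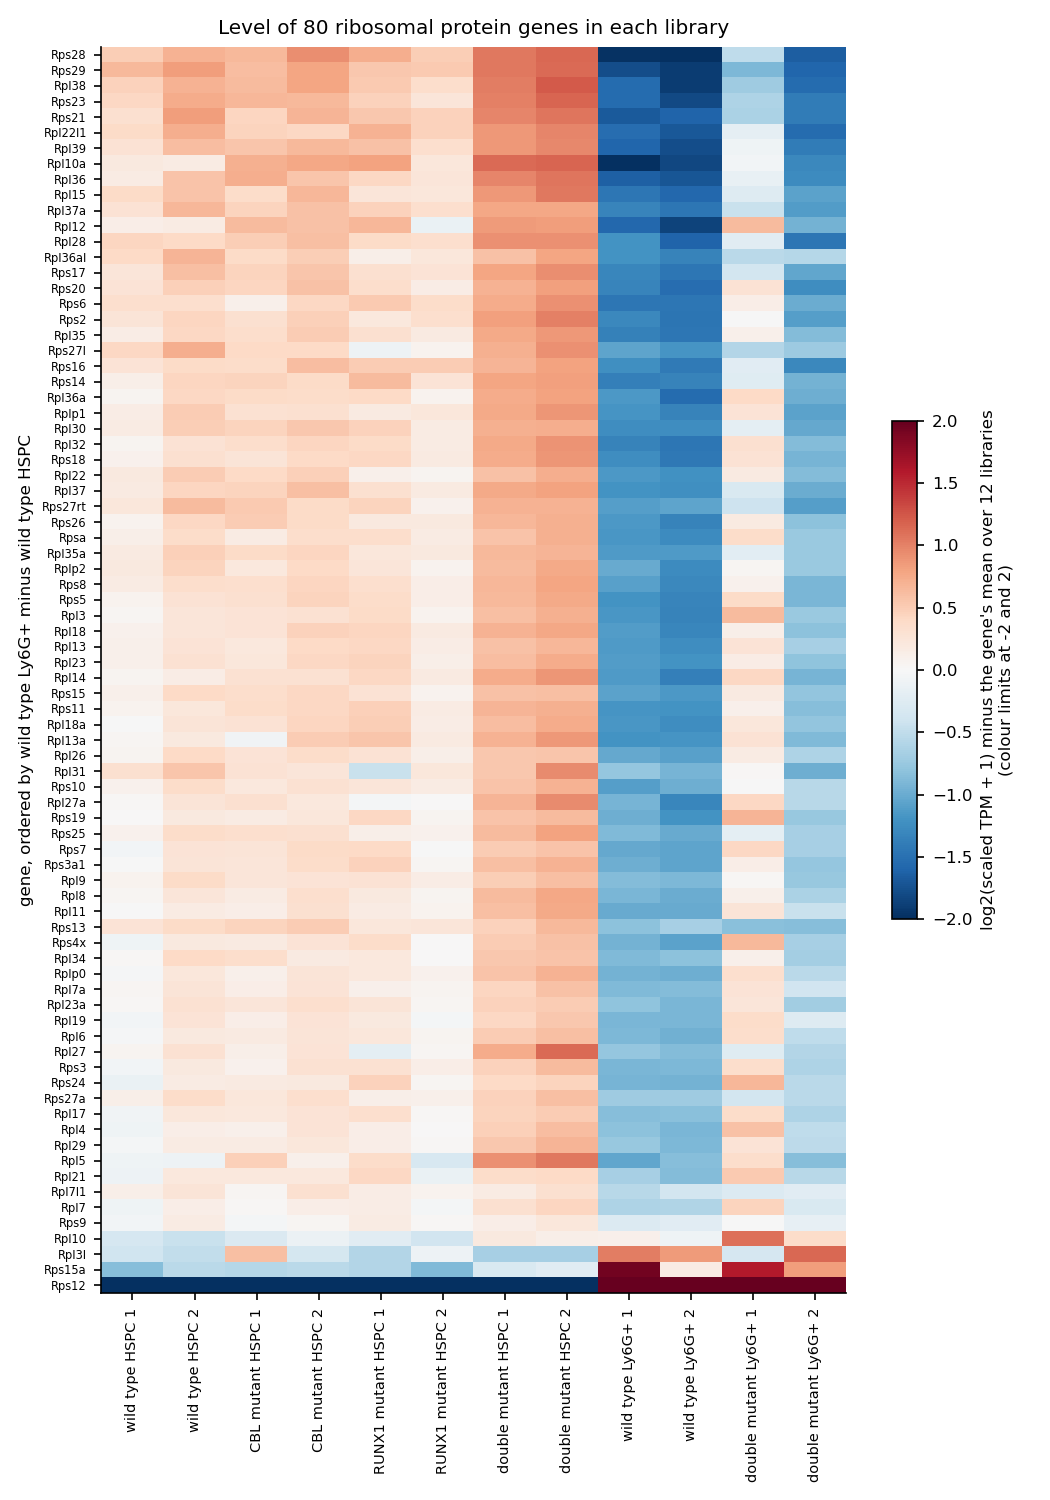
Level of 80 ribosomal protein genes (rows) in the 12 libraries (columns) as log2(scaled TPM + 1) minus the gene's mean over the libraries, with colour limits at -2 and 2; genes are ordered by wild type Ly6G+ minus wild type HSPC. Most rows are highest in double mutant HSPC and lowest in wild type Ly6G+ cells, the first double mutant Ly6G+ library lies between, and Rps12, Rps15a, Rpl3l and Rpl10 at the bottom run the other way.

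To see which genes departed from the common fall, libraries were scaled on the median of the ribosomal protein genes. Then 6 genes were called higher and 10 lower in wild type Ly6G+ cells against HSPC, in place of 3 and 69 with the common scaling. Rps12 is counted among the higher ones in both, although it passed the filter only through Ly6G+ libraries. The share of all genes called under this scaling is not set beside these counts. They are therefore not results about the ribosomal protein genes alone. Farthest below the median were Rps28 at -1.22 (adjusted p of 0.00282), Rps29 at -1.20, Rpl38 at -0.93 and Rps23 at -0.88 (adjusted p of 0.00997). Rpl38 is known for its part in translating homeobox mRNAs. Farthest above were Rps12, Rps15a at 3.11, Rpl3l at 2.43 and Rpl10 at 1.76 (adjusted p of 0.00130). Rpl10 joins the large subunit in the last steps of its assembly. The rows of Rps23 and Rpl10 each share their signal with a near-identical row, and that split moved with the cell type. With copies summed on the common scaling, Rps23 was not called and Rpl10 was called lower, as given further on. The place of these 2 rows therefore depends on their copies. Rps28 also has a near-identical row, Gm10443, and its place with copies summed is not given here. Rps15a (ENSMUSG00000008683, chromosome 7, 118104372 to 118116188) had 735 and 782 TPM in wild type, 1085 and 1121 in CBL mutant, 1430.4 and 814 in RUNX1 mutant and 1598 and 1529 in double mutant HSPC. In Ly6G+ libraries it had 4676 and 1356 TPM for wild type and 7072 and 2632 TPM for the double mutant. Its wild type Ly6G+ libraries differed widely from each other but both lay above the wild type HSPC ones, and its change on the common scaling was 1.74 ± 0.51 (SE) with an adjusted p of 0.0268 by limma. Rpl3l had 0.616 and 0.450 TPM in wild type HSPC and 2.79 and 2.38 in wild type Ly6G+ cells, a difference of a few TPM that gave 1.38 ± 0.48 (SE) and an adjusted p of 0.0481. Under the same scaling, 0 genes were called in each of the other 8 comparisons and terms by limma.

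Many ribosomal protein genes have near-identical pseudogenes or retrogenes, and their rows share the signal. By alignment of transcripts, 807 pseudogene rows matched a member at 85% identity or more over at least 50% of the copy. These rows held 17.3% to 19.1% of the TPM of members plus copies in every library. In 13 genes the member's own row held less than 50% of that sum, from 0.400% in Rpl31, 2.14% in Rpl27a, 3.63% in Rpl12 and 4.24% in Rpl27 up to 37.5% in Rpl5 and 45.4% in Rps23. The TPM of these genes are therefore uncertain, since reads within identical bases fit both rows. Rps27 was listed at 0 in 11 libraries and at 260.5 TPM in the first wild type Ly6G+ library, while Rps27rt, a retrogene identical to it over all 252 coding bases, had 6573 and 7443 TPM in wild type, 9822 and 9012 in CBL mutant, 12311 and 6747 in RUNX1 mutant and 13665 and 12263 in double mutant HSPC.

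In some pairs the split between the rows moved with the cell type. Rps12 (ENSMUSG00000061983, chromosome 10, 23785183 to 23787275), of the small subunit, had at most 0.0248 TPM in the 8 HSPC libraries and 410.2 and 702 TPM in wild type Ly6G+ cells and 3431 and 1112 in their double mutant counterparts. Rps12-ps3 (chromosome 19, 59322290 to 59322783) is identical to it over all 396 coding bases and had 2884 and 2876 TPM in wild type HSPC, 5882 and 5759 in double mutant HSPC, 748 and 366 in wild type Ly6G+ cells and 1808 and 549 in double mutant Ly6G+ cells. The rise of the Rps12 row between the wild type populations became a log2 fold change of -1.36 (adjusted p of 0.00974 by limma) when copies were summed. Rps23, a protein of the decoding centre, had 993 and 1059 TPM in wild type, 1439 and 1434 in CBL mutant, 1641 and 994 in RUNX1 mutant and 2229 and 2252 in double mutant HSPC. In Ly6G+ libraries it had 235 and 194 TPM for wild type and 855 and 313 TPM for the double mutant. Gm9701 had 609 and 592 TPM in wild type HSPC and 847 and 867 in wild type Ly6G+ cells. The Rps23 row took 61.997 and 64.2% of the pair in wild type HSPC and 21.7 and 18.3% in wild type Ly6G+ cells, and with copies summed its change was -0.60 with an adjusted p of 0.138. Rpl37 took 92.4 and 96.6% of its pair with Rpl37rt in wild type HSPC, 94.3 and 93.1% in double mutant HSPC, 26.3 and 24.3% in wild type Ly6G+ cells, and 26.4 and 23.8% in double mutant Ly6G+ cells. Rpl10 had 283 and 222 TPM in wild type HSPC and 353 and 304 in wild type Ly6G+ cells, a change of 0.39 that became -0.75 (adjusted p of 0.0417) with copies summed, while Rps15a was at 1.73 (adjusted p of 0.0268) with copies summed. In the pairs of Rps23 and of Rpl37 the 4 Ly6G+ libraries had the lower shares, in either genotype.

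Stretches of 60 coding bases of these pairs show how little separates the rows, with capitals at the bases that differ between the 2 sequences of a pair. Rps12 and Rps12-ps3 share coding bases 1 to 60, Rps23 and Gm9701 are shown for bases 175 to 234, where 5 of their 13 differences in 429 bases lie, and Rpl37 and Rpl37rt for bases 190 to 249, which hold their 1 difference in 291 bases. The sequences are from the GENCODE GRCm38 transcripts. Gm9701 is on chromosome 3 (62923807 to 62924233) and Rpl37rt on chromosome 5 (115102923 to 115110268).
Rps12: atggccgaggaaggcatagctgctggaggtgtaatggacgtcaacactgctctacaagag
Rps12-ps3: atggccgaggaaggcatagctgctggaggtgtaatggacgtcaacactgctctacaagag
Rps23: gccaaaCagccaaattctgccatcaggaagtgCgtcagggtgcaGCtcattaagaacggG
Gm9701: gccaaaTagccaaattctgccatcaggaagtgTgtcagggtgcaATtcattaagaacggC
Rpl37: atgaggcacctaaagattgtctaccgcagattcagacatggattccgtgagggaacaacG
Rpl37rt: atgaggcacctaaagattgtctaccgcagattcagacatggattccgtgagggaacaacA

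**Figure D4:**
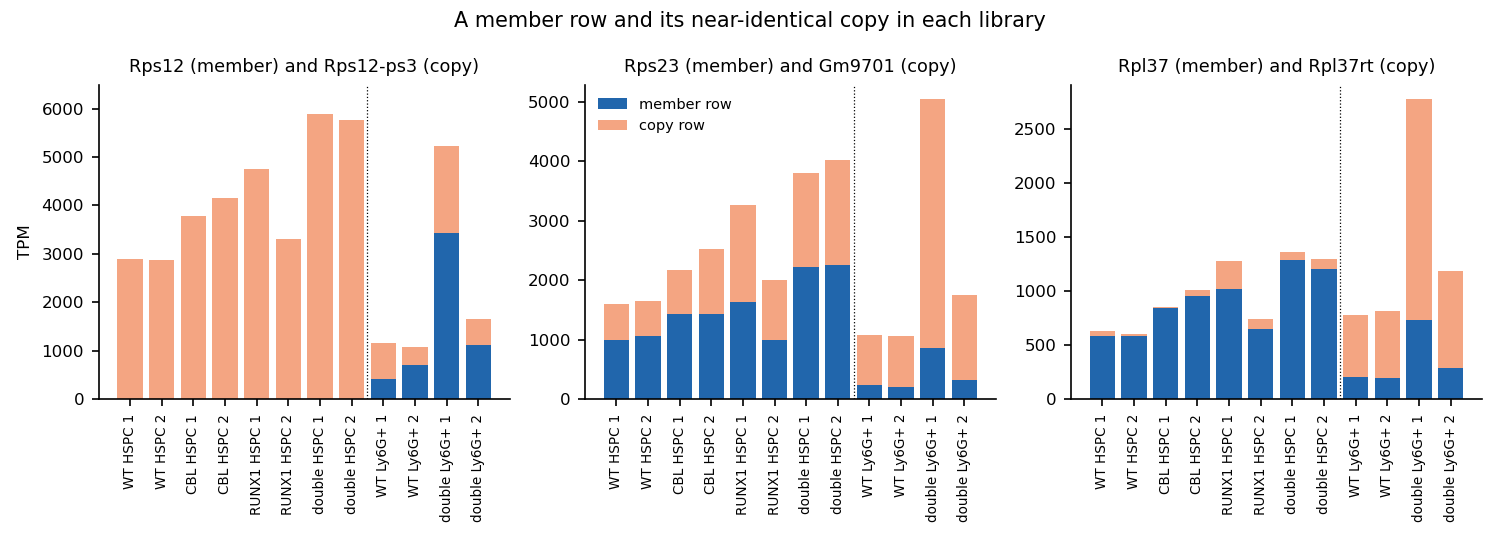
TPM (vertical axis) of a member row (blue) and its near-identical copy row (orange), stacked, in the 12 libraries; the dotted line separates HSPC from Ly6G+ libraries. The Rps12 row is at or near 0 in every HSPC library, and the Rps23 and Rpl37 rows take a smaller part of their pair in all 4 Ly6G+ libraries than in HSPC libraries.

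The genes that fell most between the wild type populations tended to have short coding sequences. Over 80 genes the longest annotated coding length and the log2 fold change had a Spearman's rho of 0.54. It was 0.65 over 66 genes whose own row held most of the TPM of member plus copies, with Rpl3l left out. Over 906 other genes expressed at these levels rho was 0.26. Of these 66 genes, the 15 with the shortest coding sequences, up to 345 bases, had a median change of -1.80 against -1.29 in the rest. Genes tied at 345 bases were taken in the order of their symbols. In RUNX1 mutant against wild type HSPC rho was 0.55 (0.26 over 569 other genes) with medians of -0.08 and 0.03, and in double mutant against wild type HSPC it was 0.22 with medians of 0.45 and 0.46. It was -0.32 in double mutant against RUNX1 mutant HSPC and -0.37 for the non-additive term, the opposite sign. The points of each correlation share their libraries, and TPM themselves are divided by transcript length, so these are descriptions and the part of length in the values was not tested.

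**Figure D5:**
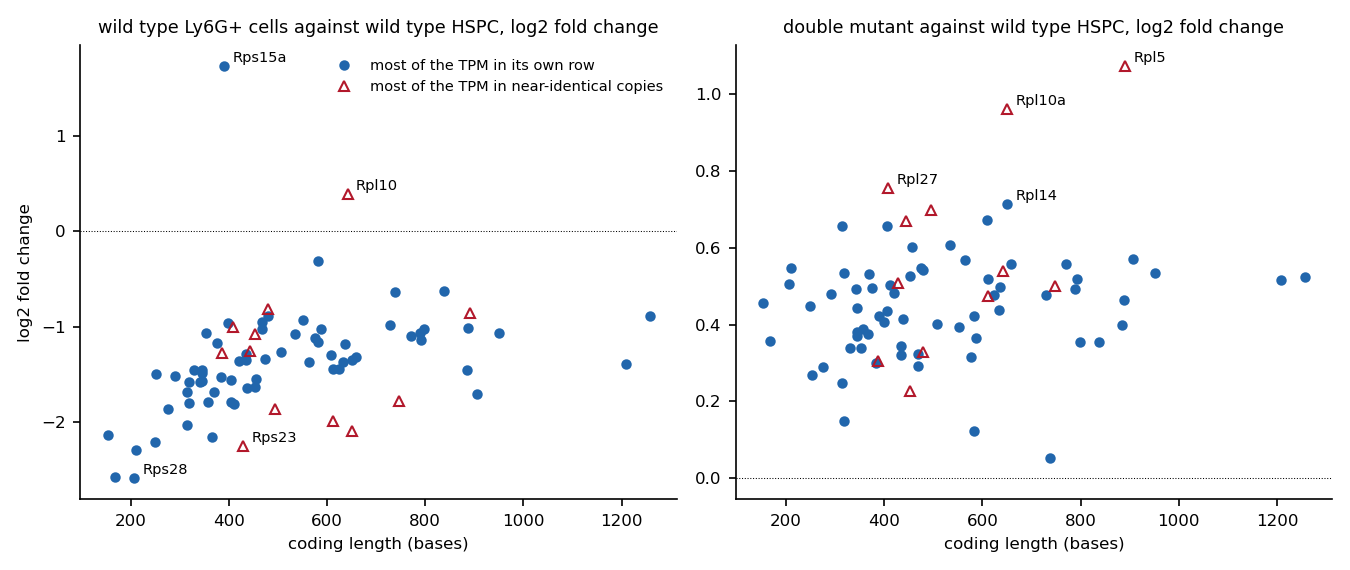
Log2 fold change (vertical axis) against longest annotated coding length in bases (horizontal axis) for each tested ribosomal protein gene except Rps12 and Rpl3l, in wild type Ly6G+ cells against wild type HSPC (left) and double mutant against wild type HSPC (right); circles are genes with most of their TPM in the own row and open triangles those with most of it in copies. On the left shorter genes tend to lie lower, with Rps28 the lowest at -2.60, though some longer genes such as Rpl10a lie low too. On the right Rpl5 and Rpl10a, both open triangles, are highest.

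Genes that build ribosomes were examined beside the ribosomal proteins. Of 44 tested genes of RNA polymerase I and ribosomal RNA processing, 21 were called higher and 0 lower in double mutant against wild type HSPC, against 4.77% of all genes called higher, with a median log2 fold change of 0.70. The smallest p were those of the nucleolar proteins Rrp1b (1.31 ± 0.19, SE, adjusted p of 0.0188 by limma), Nop56 (1.13, adjusted p of 0.0201), Pes1 (1.02) and Imp4 (0.76, adjusted p of 0.0284). Against RUNX1 mutant HSPC 32 were called higher, against 6.05% of all genes, with a median of 0.91 and the smallest p for Nhp2 (1.32), Nolc1 (1.24), Npm1 (1.06) and Nop56 (1.31). Against CBL mutant HSPC 1 was called, Lsg1 (0.70, adjusted p of 0.0451), with a median of 0.48; 29 were called without either RUNX1 mutant library and 0 without any 1 of the other HSPC libraries. The medians of CBL mutant and RUNX1 mutant against wild type HSPC were 0.20 and -0.21 with 0 called in each, and the latter was 0.32 without scaling. In wild type Ly6G+ cells against HSPC 40 were called lower, against 21.1% of all genes, and 1 higher, Polr1a (1.40). Those called lower were led by Nhp2 (-2.05), Nop10 (-2.24), Pno1 (-1.72) and Gar1 (-2.37). In double mutant against wild type Ly6G+ cells 0 were called by limma, with a median of 0.84. The number called depended on which double mutant library was left out. The calls against wild type HSPC fell to 0 without any 1 wild type or double mutant HSPC library, to 2 without any 1 CBL mutant library, and rose to 38 without either RUNX1 mutant library and to 43 without scaling, and were 3 when scaled on the median of the ribosomal protein genes. Those against RUNX1 mutant HSPC fell to 0 without either double mutant library, to 10 or 11 without any 1 wild type or CBL mutant library, to 10 without scaling and to 13 when scaled on that median, and were 40 without the first RUNX1 mutant library. Between the wild type populations, leaving out 1 library left 26 to 41 lower calls, with 26 without the second wild type HSPC library. There 24 were called lower without scaling, and 3 lower and 3 higher when scaled on the median of the ribosomal protein genes.

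Chaperones and importers of ribosomal proteins were examined as well. Of 10 tested, Heatr3, which carries Rpl5 into the nucleus, was called higher in double mutant against wild type HSPC (0.65, adjusted p of 0.0411 by limma). Against RUNX1 mutant HSPC 3 were called, Heatr3 (1.07), Nap1l1 (0.61) and Ipo7 (0.51), which became 0 without either double mutant library, 1 without any 1 wild type or CBL mutant library and 8 without the first RUNX1 mutant library. The shares of all genes called higher in these comparisons are the 4.77% and 6.05% given above. Of the 10, 8 were called lower in wild type Ly6G+ cells against HSPC, against 21.1% of all genes. They were led by Heatr3 (-1.37), Bccip (-1.11), Tsr2 (-1.47) and Naca (-1.04). Fewer were called without the second wild type HSPC or the second wild type Ly6G+ library. Among 17 growth regulators, 1 was called higher and 1 lower by limma in double mutant against wild type HSPC. These counts were near the shares of all genes, 4.77% higher and 6.09% lower. The 2 were Akt1s1, an mTORC1 inhibitor, higher (0.69, adjusted p of 0.0254), and Mlst8, an mTORC1 subunit, lower (-1.65, adjusted p of 0.0467). These chaperone and regulator calls in double mutant against wild type HSPC were all lost without any 1 wild type, CBL mutant or double mutant HSPC library. In wild type Ly6G+ cells against HSPC, 3 of the 17 were called lower and 1 higher by limma, against 21.1% and 17.6% of all genes. Lower were Myc, a driver of ribosome gene transcription (-2.34, adjusted p of 0.00533), Akt1s1 (-1.17) and Rps6kb1 (-0.52). Eif4ebp2 was higher (0.54), a call that was lost without any 1 wild type library of either population. Among 8 tested genes of the p53 response, 1 was called lower by limma in double mutant against wild type HSPC, against 6.09% of all genes. It was Sesn2 (-0.79, adjusted p of 0.0479). The call was lost without any 1 wild type, CBL mutant or double mutant HSPC library. In wild type Ly6G+ cells against HSPC, 3 of 10 were called higher and 2 lower, against 17.6% and 21.1% of all genes. Higher were Sesn2 (2.63), Mdm4 (0.85) and Mdm2 (0.99), and lower were Bax (-1.27) and Trp53 (-1.20). Fewer were called in each direction without the second wild type HSPC or the second wild type Ly6G+ library.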

How the data were processed

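RNA was sequenced from 12 mouse libraries, 2 in each of 6 groups taken from the labels. Per the submitters' processing notes the authors used bcl2fastq, CASAVA 1.8 and kallisto with mm10, and the deposited values are TPM for 28987 genes, although the table is named for counts. The kallisto version and annotation are not given in the sources used here. Library sums ranged from 933370 to 981994 TPM, and no depth or interval can be given. A symbol was found for 94.7% of the identifiers in the GENCODE annotation of GRCm38. From the TPM were computed TMM factors (trimming 0.3 of log ratios and 0.05 of levels), log2(TPM + 1) and limma 3.58.1 fits in R 4.3.3, with trend and robust moderation, in 8 HSPC libraries, 4 Ly6G+ libraries or all 12. Copies were found with blastn 2.17.0. The script was tested on simulated data. Other settings, 2 of them added after seeing the data (copies summed, and both libraries that stand apart left out), are in the closing section. Members and lists were chosen with earlier results of these data known. Genes named are a fixed set, the 5 highest and 5 lowest levels, the smallest p per comparison (6 called in each direction, or 2 where none is called), the 4 called farthest from the members' median in each direction, and up to 4 of each other list. The result of 1 list is not reported here. Equal replicate numbers were not treated as pairs, since no label ties them to a shared animal or day and the check of pairing is in the closing section. P-values measure the spread between libraries, each from individual mice per the labels' protocols.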

Additional observations from a re-analysis of the deposited data

How the results depend on the processing

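All comparisons rest on 2 libraries per group, and depth is unknown, so low rows cannot be given a counting error. The count of ribosomal protein genes called in double mutant against wild type HSPC, 8, became 21 with upper quartile scaling, 78 without scaling, 0 when scaled on the members' median, 4 without S100a8, S100a9, immunoglobulin, haemoglobin and mitochondrial genes, 0 with no filter, 23 with the compared libraries alone, 0 with all 12 libraries in the fit, 3 with no trend and no robust moderation, 3 with copies summed and 40 without both libraries that stand apart. The count against RUNX1 mutant HSPC, 9, became 20 (upper quartile), 4 (no scaling), 0 (members' median), 0 (no filter), 0 (compared libraries alone), 1 (all 12 libraries), 3 (no trend), 5 (copies summed) and 30 (without both libraries). Against CBL mutant HSPC the count of 0 became 1 without scaling, 17 with the compared libraries alone and 7 without both libraries. For CBL mutant against wild type HSPC, 0 became 2 with the compared libraries alone and 2 without both libraries. Without both libraries the non-additive term gave 1, the Ly6G+ comparison 2 and the cell type term 1. The 72 calls between wild type populations became 33 without scaling and 16 when scaled on the members' median.

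Leaving out 1 library at a time gave 0 to 2 calls for CBL mutant and 0 to 4 for RUNX1 mutant against wild type HSPC, 0 to 40 for the double mutant against wild type, 0 to 8 against CBL mutant, 0 to 30 against RUNX1 mutant, 0 to 3 for the non-additive term, 0 to 76 in Ly6G+ cells, 29 to 79 between wild type populations and 0 to 29 for the cell type term. A group left with 1 library is assumed to vary like the others. The share of all genes called is not set beside the counts with a library left out or under other settings. Those counts are therefore not results about the ribosomal protein genes alone. With a replicate block the counts were 13 for double mutant against wild type, 19 against RUNX1 mutant and 1 against CBL mutant HSPC; the other 6 counts stayed within 1.5 times of the counts without it, and no sign of a pairing was taken from it. To check for a pairing, deviations from the group mean were correlated over genes between same-numbered libraries. These correlations were -0.00 to 0.18 in HSPC and 0.19 in Ly6G+ cells. Between HSPC and Ly6G+ groups they were -0.01 to 0.46, the highest being RUNX1 mutant HSPC with double mutant Ly6G+ cells.

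Between wild type populations, scaling on the members' median turned Rps19 to 0.19, Rpl11 to 0.29, Rplp0 to 0.31, Rps13 to 0.28 and the members' median itself to 0.0015, as that scaling is built to do. Summing copies turned Rpl10 from a rise to -0.75 and Rps12 to -1.36. Without scaling, Rpl36al in RUNX1 mutant against wild type HSPC turned to 0.17. The cause of the other changes was not tested.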
